A study of Homo sapiens with 12 samples.

Results

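HNRNPA2B1, the gene targeted by the hnRNPA2B1 siRNA, was examined together with its closest hnRNP relatives and with CBX3, the gene that overlaps it head to head. The 9 members were HNRNPA2B1, HNRNPA1, HNRNPA3, HNRNPA0, HNRNPAB, HNRNPD, HNRNPDL, HNRNPA1L2 and CBX3, taken by symbol from the 60617 genes of the count tables, and all 9 passed the filter on low counts in every comparison. The libraries were of 769-P, an established cell line of human clear cell renal carcinoma. They formed 4 groups of 3: cells labelled sihnRNPA2B1, with an siRNA (small interfering RNA) against hnRNPA2B1, and their sihnRNPA2B1-NC controls, and cells labelled siDRAIC, with an siRNA for DRAIC, a long non-coding RNA, and their siDRAIC-NC controls. No source used here says what NC stands for, which sequences the siRNAs had or how long after transfection RNA was taken. All 12 libraries came from 1 cell line, and no label says that replicates were separate cultures, so the p-values rest on a spread between libraries that may be technical.

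The hnRNP A/B proteins bind nascent RNA in the nucleus through a pair of RNA recognition motifs followed by a glycine-rich tail. They package pre-mRNA and act in splicing, export and mRNA stability, and several of them bind to their own or each other's transcripts. HNRNPA2B1 makes the A2 and B1 proteins by alternative splicing, and is known as a reader of N6-methyladenosine (m6A) and as a factor in microRNA processing. The series title links DRAIC to the stability of hnRNPA2B1, which raises the question of how the RNA of this gene and of its relatives changed with either siRNA.

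Library totals ran from 30798303 to 42760528 counts, and levels are given as CPM, which scales counts to the library total. Of 12 renal epithelial and renal carcinoma markers, 10 averaged above 1 CPM in every group, while CA9 was at 0 in 3 of the 4 groups and KRT19 was below 1 CPM. No blood or endothelial marker averaged 1 CPM, and of 4 fibroblast markers COL1A1 did in every group. DRAIC had 3, 6 and 0 counts in the libraries labelled siDRAIC, against 2, 1 and 2 counts in siDRAIC-NC, so a fall of DRAIC RNA was not detectable at this depth, and that label is not checked by the data.

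HNRNPA2B1 lies on the minus strand of chromosome 7 at chr7:26173057-26201529 (GRCh38, GENCODE release 29). CBX3, on the plus strand at chr7:26201162-26213356, shares 368 exonic bases with it at their outermost 5′ ends in GENCODE 29. The RefSeq starts given below lie 697 bases apart and diverge, so the overlap depends on which starts are in use. No source used here says whether counting used strand, and reads from these 368 bases cannot be told apart. NFE2L3, on the plus strand, overlaps the span of HNRNPA2B1 by 14069 bases but shares 0 exonic bases. HNRNPA1 lies at chr12:54280193-54287088, HNRNPA3 at chr2:177212563-177223958, HNRNPA0 at chr5:137745651-137754376 and HNRNPAB at chr5:178204507-178211163. HNRNPAB shares 196 exonic bases with PHYKPL on the opposite strand. HNRNPD, at chr4:82352498-82374503, and HNRNPDL, at chr4:82422564-82430408, are neighbours on the minus strand, and HNRNPA1L2 lies at chr13:52642425-52643796.

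The coding sequences, from 1 transcript per gene, were compared to see how far counts of one relative could be mistaken for those of another. The coding sequence of HNRNPA2B1 was 72.4% identical to that of HNRNPA1 and 74.9% identical to that of HNRNPA3, and HNRNPA1 and HNRNPA3 were 77.7% identical. Over all GENCODE 29 transcripts of each gene, HNRNPA2B1 shared 0 runs of 50 bases with any other hnRNP member. Its longest shared run was 20 bases, with HNRNPA1L2. HNRNPA1 and HNRNPA1L2, a copy annotated without introns in GENCODE 29, were 98.4% identical in coding sequence. Of the 50-base runs of HNRNPA1L2, 47.6% also occurred in HNRNPA1, so the level of HNRNPA1L2 is uncertain. The 60 coding bases of HNRNPA2B1 most alike in HNRNPA1 and HNRNPA3, bases 319 to 378 of its coding sequence, are shown for the siRNA target and for HNRNPA3 and HNRNPD, 2 relatives whose counts changed. Sequences are of the coding strand of GENCODE 29 transcripts, 5′ to 3′, and capitals mark bases that differ from HNRNPA2B1.
HNRNPA2B1: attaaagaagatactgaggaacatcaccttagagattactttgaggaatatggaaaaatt
HNRNPA3: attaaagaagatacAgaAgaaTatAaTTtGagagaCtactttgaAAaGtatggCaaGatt
HNRNPD: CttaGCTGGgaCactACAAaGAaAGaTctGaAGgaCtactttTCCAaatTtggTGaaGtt
HNRNPA3 matched HNRNPA2B1 at 47 of these 60 bases, HNRNPDL at 36 and HNRNPD at 32. The siRNA's own target site is not shown, since no source used here gives its sequence.

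HNRNPA2B1 RNA fell after its siRNA. It had 291, 307 and 274 CPM in the sihnRNPA2B1 libraries, against 428, 396 and 435 CPM in the sihnRNPA2B1-NC libraries. Every siRNA library lay below every control library, and the means were 291 ± 16.7 and 419.6 ± 21 CPM (SD, n = 3 each). The fitted level was 0.677 of the control, a log2 fold change of -0.56 (edgeR adjusted p = 2.162e-09, SE 0.052). In these bulk libraries, fewer cells with the RNA and less RNA per cell cannot be told apart. Of the 15710 genes tested in this experiment, 91 had a smaller p.

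HNRNPA3 and HNRNPA1, the members nearest to HNRNPA2B1 in coding sequence apart from HNRNPA1L2, both rose. HNRNPA3, known from work in rat for binding RNA trafficking elements, had 301, 287 and 269 CPM in sihnRNPA2B1, against 183, 178 and 184 CPM in sihnRNPA2B1-NC. The groups did not overlap, with a log2 fold change of 0.62 (SE 0.052, edgeR adjusted p = 3.1e-10), slightly larger in size than that of the targeted gene. HNRNPA1, a splicing repressor and the best studied of the family, had 985, 946 and 923 CPM in sihnRNPA2B1, against 724, 688 and 716 CPM in sihnRNPA2B1-NC. The groups were again apart, with a log2 fold change of 0.39 (SE 0.047, edgeR adjusted p = 2.328e-07).

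**Figure D1:**
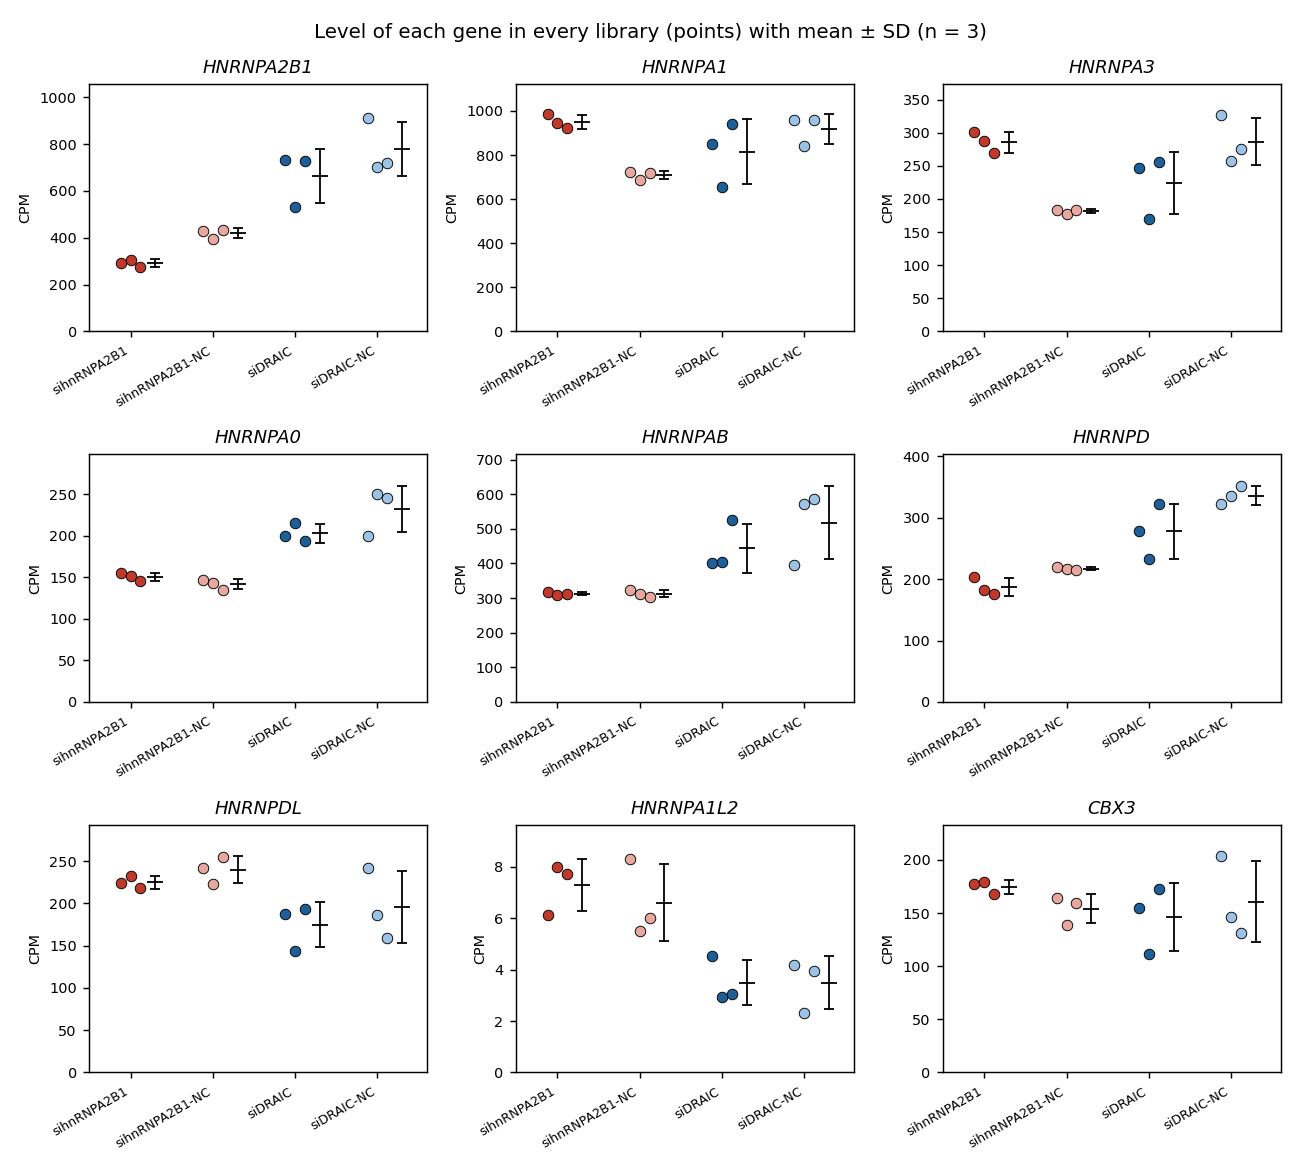
CPM of the 9 genes in each of the 12 libraries (points, 3 per group), with the group mean and SD beside them; each panel has its own axis from 0. HNRNPA2B1 was lower, and HNRNPA1 and HNRNPA3 were higher, in every sihnRNPA2B1 library than in every sihnRNPA2B1-NC library, and the DRAIC experiment spread more widely.

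HNRNPD, also called AUF1, binds AU-rich elements and speeds the decay of many mRNAs. It had 204, 182 and 175 CPM in sihnRNPA2B1, against 219, 217 and 216 CPM in sihnRNPA2B1-NC. It fell by a smaller step than the targeted gene, with no overlap between groups (log2 fold change -0.25, SE 0.056, edgeR adjusted p = 0.0009943). Its neighbour and paralog HNRNPDL had 224, 233 and 218 CPM in sihnRNPA2B1, against 242, 222 and 255 CPM in sihnRNPA2B1-NC. Those groups overlapped, and the log2 fold change of -0.12 missed the threshold (SE 0.053, edgeR adjusted p = 0.07828). Without the library sihnRNPA2B1-NC 2 HNRNPDL passed it, at -0.17 with an adjusted p of 0.01237, and over all left-out libraries it ranged from -0.17 to -0.09, with an adjusted p of up to 0.2251.

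The remaining hnRNP members gave no call after hnRNPA2B1 siRNA. HNRNPA0, which binds AU-rich elements of inflammatory mRNAs, had 146 to 155 CPM in sihnRNPA2B1 and 135 to 146 CPM in sihnRNPA2B1-NC, with a log2 fold change of 0.05 (edgeR adjusted p = 0.4985). HNRNPAB, an hnRNP also known as CBF-A, had 308 to 316 CPM in sihnRNPA2B1 and 302 to 324 CPM in sihnRNPA2B1-NC, with a log2 fold change of -0.04 (edgeR adjusted p = 0.6443). HNRNPA1L2 had 209 to 315 counts in sihnRNPA2B1 and 216 to 256 counts in sihnRNPA2B1-NC, and its log2 fold change of 0.12 had an SE of 0.15 (edgeR adjusted p = 0.5776).

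Of the 9 members, 4 passed the test after hnRNPA2B1 siRNA, 2 upward and 2 downward. Over all 15710 tested genes 30.4% were called, 15.1% upward and 15.4% downward, so 4 calls among 9 genes stand against a background in which calls were common. The groups did not overlap for 5 members, the 4 called and CBX3, against 42.0% of all tested genes. The 4 fibroblast markers summed to 3.56 to 4.12 CPM in sihnRNPA2B1 and 2.47 to 3.39 CPM in sihnRNPA2B1-NC without overlap, nearly all of it COL1A1 and PDGFRB, while LUM was at 0 in sihnRNPA2B1 and DCN at 0 in sihnRNPA2B1-NC. Their part in the members' levels was not tested. The median log2 fold change was 0.05 over the members and 0.01 over all tested genes. In a fit of all 12 libraries, whose spread includes that of the DRAIC experiment, the calls of HNRNPA2B1 and HNRNPA3 were kept while HNRNPA1 and HNRNPD had adjusted p of 0.1067 and 0.341.

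CBX3 encodes HP1 gamma, a chromatin protein that binds methylated histone H3, and starts beside HNRNPA2B1 on the other strand. CBX3 had 177, 179 and 168 CPM in sihnRNPA2B1, against 164, 138 and 159.7 CPM in sihnRNPA2B1-NC. Every siRNA library lay above every control library, yet the log2 fold change of 0.15 missed the threshold (SE 0.058, edgeR adjusted p = 0.05281). It passed without the library sihnRNPA2B1-NC 1, at 0.19 with an adjusted p of 0.048, and without sihnRNPA2B1-NC 3, at 0.16 with an adjusted p of 0.02021. Without sihnRNPA2B1-NC 2 it was 0.08 with an adjusted p of 0.2547, and without any 1 of the sihnRNPA2B1 libraries it was 0.13 to 0.17 and missed the threshold, at adjusted p of 0.05807 to 0.1981. The ratio of HNRNPA2B1 to CBX3 counts was 1.66 ± 0.046 in sihnRNPA2B1 and 2.73 ± 0.13 in sihnRNPA2B1-NC (SD, n = 3 each). The other protein-coding genes within 200 kb were NFE2L3, a CNC-family transcription factor, and SNX10, an endosomal sorting nexin. NFE2L3 had 38.6 ± 2.48 CPM in sihnRNPA2B1 and 35.5 ± 0.55 CPM in sihnRNPA2B1-NC, and SNX10 had 35.6 ± 2.96 CPM in sihnRNPA2B1 and 33.6 ± 2.38 CPM in sihnRNPA2B1-NC.

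The transcription starts of HNRNPA2B1 and CBX3 in RefSeq (GRCh38.p14) lie 697 bases apart and point away from each other. Their promoter windows, 250 bases before to 50 bases after the start, are shown because the siRNA target and its neighbour start in this stretch in opposite directions. The first is chr7:26200697-26200996 on the minus strand and the second chr7:26201193-26201492 on the plus strand, 5′ to 3′. Capitals mark a CCAAT box (CCAAT or ATTGG) or a GC box (GGGCGG or CCGCCC), searched on both strands.
HNRNPA2B1 promoter: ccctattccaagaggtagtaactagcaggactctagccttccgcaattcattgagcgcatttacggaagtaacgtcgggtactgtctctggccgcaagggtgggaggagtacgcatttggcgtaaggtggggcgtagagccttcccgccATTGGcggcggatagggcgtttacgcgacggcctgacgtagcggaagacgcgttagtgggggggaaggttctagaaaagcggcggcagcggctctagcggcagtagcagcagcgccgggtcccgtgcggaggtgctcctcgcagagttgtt
CBX3 promoter: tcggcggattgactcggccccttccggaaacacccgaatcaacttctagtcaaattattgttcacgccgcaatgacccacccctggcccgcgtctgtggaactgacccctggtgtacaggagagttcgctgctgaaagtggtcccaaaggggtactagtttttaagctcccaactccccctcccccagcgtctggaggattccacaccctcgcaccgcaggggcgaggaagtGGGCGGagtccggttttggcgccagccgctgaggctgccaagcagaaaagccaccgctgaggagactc
The HNRNPA2B1 window held 1 CCAAT box, 0 GC boxes and 29 CpG dinucleotides, and the CBX3 window held 0 CCAAT boxes, 1 GC box and 19 CpG dinucleotides. Over 35116 RefSeq promoters of the same length, 34.6% held a CCAAT box and 45.0% a GC box, and the median was 14 CpG. A TATA box (TATAAA or TTTATA) was in neither window and in 11.5% of all promoters. These matches describe the letters only.

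**Figure D2:**
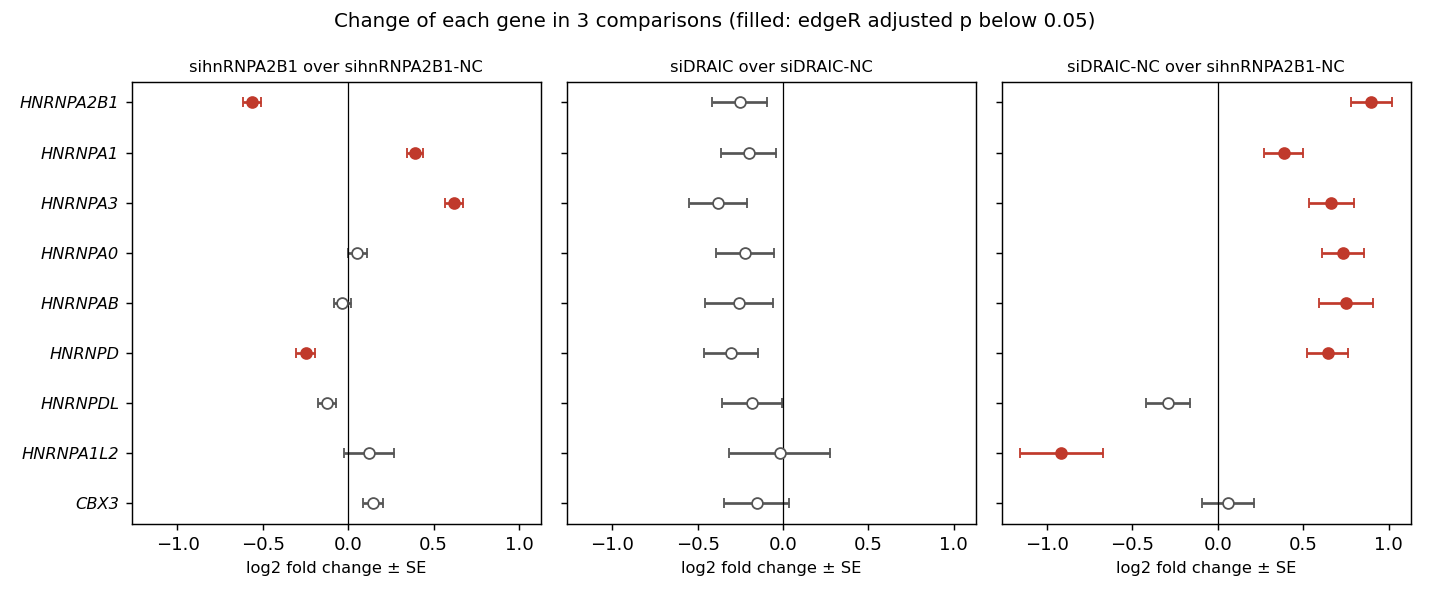
Log2 fold change of each member with its SE in the 3 comparisons of groups, from edgeR fits over all genes; filled red points have an adjusted p below 0.05. After hnRNPA2B1 siRNA 4 members were called in both directions, in the libraries labelled siDRAIC 0, and between the control groups 7.

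In the hnRNPA2B1 experiment, the makeup of the family shifted more than its sum. The 8 hnRNP genes together had 2410 ± 79.2 CPM in sihnRNPA2B1 and 2229 ± 59.2 CPM in sihnRNPA2B1-NC (SD, n = 3 each). HNRNPA2B1 gave 12.1 ± 0.54% of these counts in sihnRNPA2B1 and 18.8 ± 0.52% in sihnRNPA2B1-NC. HNRNPA1 gave 39.5 ± 0.37% in sihnRNPA2B1 and 31.8 ± 0.015% in sihnRNPA2B1-NC, and HNRNPA3 gave 11.8 ± 0.28% in sihnRNPA2B1 and 8.14 ± 0.097% in sihnRNPA2B1-NC. For each HNRNPA2B1 count there were 1.03, 0.934 and 0.984 HNRNPA3 counts in the sihnRNPA2B1 libraries, against 0.427, 0.449 and 0.423 in the sihnRNPA2B1-NC libraries. These shares restate the members' changes on another scale and are given as a description.

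**Figure D3:**
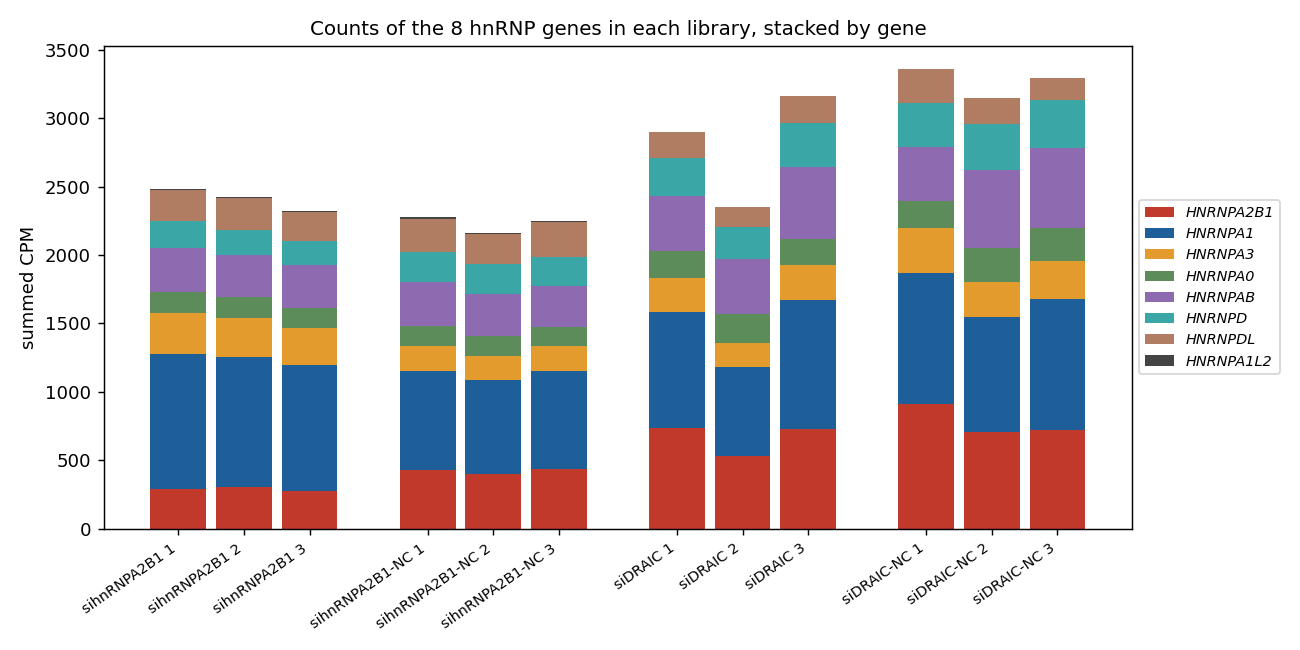
Summed CPM of the 8 hnRNP genes in each of the 12 libraries, stacked by gene, with HNRNPA2B1 at the base. The sums were 2326 to 2483 CPM in sihnRNPA2B1 and 2162 to 2275 CPM in sihnRNPA2B1-NC, and 2355 to 3164 CPM in siDRAIC and 3149 to 3362 CPM in siDRAIC-NC.

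Levels of different genes were compared per length, as TPM, which scales counts to length and library, over the summed exon length of each gene in GENCODE 29. That length was 9267 bases for HNRNPA2B1 and 2144 for HNRNPAB, while the transcripts chosen for their coding sequences had 1711 and 1796 bases. In sihnRNPA2B1 these 2 genes had 290.6 and 312.5 CPM, so the order of genes given here depends on the lengths used. HNRNPA1 was highest in sihnRNPA2B1, at 695 ± 24.3 TPM, followed by HNRNPAB at 542 ± 6.22, HNRNPA3 at 176 ± 10.3, HNRNPDL at 153 ± 5.84 and CBX3 at 139.9 ± 5.54 TPM. HNRNPA2B1 came next, at 117 ± 7.29 TPM, above HNRNPD, HNRNPA0 and HNRNPA1L2, and no neighbours in this order overlapped in their libraries. In sihnRNPA2B1-NC, HNRNPAB (558 ± 19 TPM) and HNRNPA1 (532 ± 17.2 TPM) overlapped at the top. HNRNPA2B1 (173 ± 9.65 TPM) came next and overlapped with HNRNPDL (167 ± 12.3 TPM), and HNRNPA3 (115 ± 2.74 TPM) came after CBX3 and HNRNPD. In siDRAIC and siDRAIC-NC, HNRNPA2B1 held the same place, at 240.0 ± 47.3 and 286 ± 51.3 TPM, below HNRNPAB and HNRNPA1 and above HNRNPD with no overlap. HNRNPA1L2 was lowest in all 4 groups.

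In the libraries labelled siDRAIC, no member passed the test. HNRNPA2B1 had 734, 531 and 728 CPM in siDRAIC, against 913, 704 and 721 CPM in siDRAIC-NC. The groups overlapped, siDRAIC 2 was the lowest library and siDRAIC-NC 1 the highest, with a log2 fold change of -0.25 (SE 0.16, edgeR adjusted p = 0.6223). HNRNPA3 had 246, 170.2 and 256 CPM in siDRAIC, against 326, 257 and 276 CPM in siDRAIC-NC. Its groups just failed to overlap, but the log2 fold change of -0.38 missed the threshold (SE 0.17, edgeR adjusted p = 0.4403).

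HNRNPA1 had 851, 653 and 943 CPM in siDRAIC, against 959, 842 and 957 CPM in siDRAIC-NC, with overlapping groups and a log2 fold change of -0.20 (SE 0.16, edgeR adjusted p = 0.7101). HNRNPD had 279, 233 and 322 CPM in siDRAIC, against 322, 335 and 351 CPM in siDRAIC-NC, with a log2 fold change of -0.30 (SE 0.16, edgeR adjusted p = 0.5256). In siDRAIC 2 the levels of HNRNPA2B1, HNRNPA1, HNRNPA3, HNRNPD, HNRNPDL and CBX3 were the lowest of the 6 libraries of this experiment. HNRNPA0 had 193 to 216 CPM in siDRAIC and 199.8 to 251 CPM in siDRAIC-NC, and HNRNPAB had 401 to 526 CPM in siDRAIC and 396 to 585 CPM in siDRAIC-NC. HNRNPDL had 144 to 193 CPM in siDRAIC and 159 to 242 CPM in siDRAIC-NC. HNRNPA1L2 had 114 to 163 counts in siDRAIC and 92 to 154 counts in siDRAIC-NC. CBX3 had 155, 111 and 173 CPM in siDRAIC and 204, 146 and 132 CPM in siDRAIC-NC, with a log2 fold change of -0.15 (SE 0.19, edgeR adjusted p = 0.831).

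All 9 members had a log2 fold change below 0 in the libraries labelled siDRAIC, with a median of -0.22 against 0.00 over all 15986 tested genes, of which 50.5% lay below 0. The change nearest 0 was that of HNRNPA1L2, at -0.02 (SE 0.30). Some other lists also leaned below 0: 20 of 22 other hnRNP proteins, with a median of -0.13, and 8 of 10 nonsense-mediated decay factors, with a median of -0.21. So did 7 of 10 import and methyltransferase genes (median -0.17) and 2 of 3 paired-motif genes (-0.18). Nearer to an even split were 7 of 13 microRNA processing genes (-0.01), 10 of 18 m6A genes (-0.02) and 8 of 15 HP1 genes (-0.11). edgeR called 0 members and 0.713% of all tested genes, limma-voom and DESeq2 also called 0 members, and 1 member, HNRNPA3, had an unadjusted p below 0.05. Groups failed to overlap for 1 of 9 members and for 15.6% of all tested genes. With the replicate number as a block, which the libraries of this experiment follow, 1404 genes were called, against 114 without it, and again 0 members, the nearest being HNRNPA3 at -0.39 (edgeR adjusted p = 0.06136) and HNRNPD at -0.31 (edgeR adjusted p = 0.1778). Within the 3 same-numbered pairs, HNRNPA1, HNRNPA3, HNRNPA0 and HNRNPD were lower in siDRAIC in 3 of 3, HNRNPA2B1, HNRNPAB, HNRNPDL and CBX3 in 2, and HNRNPA1L2 in 1. HNRNPA3 and HNRNPD were the 2 members with an unadjusted p below 0.05 in that fit. The number of genes called was 31 without siDRAIC 2, 23 without siDRAIC 3, 1035 without siDRAIC-NC 1, 9 without siDRAIC-NC 2 and 15 without siDRAIC-NC 3, with 0 members called in each. The 4 fibroblast markers summed to 10.5 to 18.2 CPM in siDRAIC and 2.55 to 6.59 CPM in siDRAIC-NC, with COL1A1 and PDGFRB above 1 CPM and LUM at 0 in both groups, and their part in the members' levels was not tested. The spread in this experiment, with SDs of up to 23.7% of the mean for the members above 100 CPM, limits what could be called: the SE of HNRNPA2B1 was 0.16 here and 0.052 in the hnRNPA2B1 experiment.

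The change in the libraries labelled siDRAIC was set against that after hnRNPA2B1 siRNA in 1 fit of all 12 libraries. HNRNPA3 was the one member called in that test, with a difference of -1.03 on the log2 scale (SE 0.18, edgeR adjusted p = 0.02906), where 0.211% of 17091 tested genes were called. It had risen after hnRNPA2B1 siRNA, and its log2 fold change in the libraries labelled siDRAIC was -0.38. Without any 1 of the 3 sihnRNPA2B1 or the 3 sihnRNPA2B1-NC libraries, or without siDRAIC-NC 3, HNRNPA3 missed the threshold, at adjusted p of 0.07405 to 0.1227, while the difference stayed between -1.13 and -0.85 over all alternatives. HNRNPA1 had a difference of -0.62 (SE 0.16, edgeR adjusted p = 0.1858). With the replicate block the adjusted p was 0.004149 for HNRNPA3 and 0.0335 for HNRNPA1, and without siDRAIC-NC 1 that of HNRNPA1 was 0.04759. HNRNPA2B1 itself had a difference of 0.28 (SE 0.17, edgeR adjusted p = 0.67), so the 2 experiments were not shown to differ in their change of its RNA.

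The 2 control groups differed in most members. HNRNPA2B1 had 704 to 913 CPM in siDRAIC-NC and 396 to 435 CPM in sihnRNPA2B1-NC, a log2 fold change of 0.90 (SE 0.12, edgeR adjusted p = 1.935e-05). That gap is wider than the fall of HNRNPA2B1 after its siRNA. HNRNPAB (0.75), HNRNPA0 (0.73), HNRNPA3 (0.67), HNRNPD (0.65) and HNRNPA1 (0.39) were also higher in siDRAIC-NC, at edgeR adjusted p of 0.0001535 to 0.01169. HNRNPA1L2 was lower there, at 3.49 ± 1.03 CPM in siDRAIC-NC and 6.61 ± 1.5 CPM in sihnRNPA2B1-NC (log2 fold change -0.92, edgeR adjusted p = 0.005299). HNRNPDL (-0.29, edgeR adjusted p = 0.07447) and CBX3 (0.06, edgeR adjusted p = 0.7641) were not called, and HNRNPDL passed without siDRAIC-NC 1, at -0.41 with an adjusted p of 0.008259, and over all left-out libraries it ranged from -0.41 to -0.18, with an adjusted p of up to 0.2974.

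Of the 9 members, 7 were thus called between the control groups, 6 upward and 1 downward, where 51.6% of all 17091 tested genes were called, 26.6% upward and 25.0% downward. The ratio of HNRNPA2B1 to CBX3 counts was 4.93 ± 0.51 in siDRAIC-NC and 2.73 ± 0.13 in sihnRNPA2B1-NC. NFE2L3 had 84.7 ± 12.7 CPM in siDRAIC-NC and 35.5 ± 0.55 CPM in sihnRNPA2B1-NC, and SNX10 had 42 ± 13.9 CPM in siDRAIC-NC and 33.6 ± 2.38 CPM in sihnRNPA2B1-NC. The control treatment and the experiment cannot be told apart in this comparison.

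Over all 12 libraries, the genes whose pattern was most like that of HNRNPA2B1 were ranked by the root mean square difference of log2 CPM, each gene centred on its own mean, among 8972 genes of at least 10 CPM. The 5 nearest were MMAB, an enzyme of cobalamin metabolism, at 0.12, ESCO2, a cohesin acetyltransferase, at 0.12, DTL, a ubiquitin ligase receptor active in DNA replication, at 0.14, MELK, a mitotic kinase, at 0.15, and ABHD2, a lipid hydrolase, at 0.15 on the log2 scale. MMAB averaged 16.8 CPM in sihnRNPA2B1, 22.9 in sihnRNPA2B1-NC, 34 in siDRAIC and 40.3 in siDRAIC-NC, the same order of groups as HNRNPA2B1. Among the members, HNRNPD was nearest, at rank 235 and 0.28, followed by HNRNPAB at rank 1163 and HNRNPA0 at rank 1304. HNRNPA1 and HNRNPA3 came at ranks 3917 and 4164, behind the 3673 genes that lay nearer to HNRNPA2B1 than a gene with no change at all. The 12 points share 2 experiments and their gap, so this likeness is a description.

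**Figure D4:**
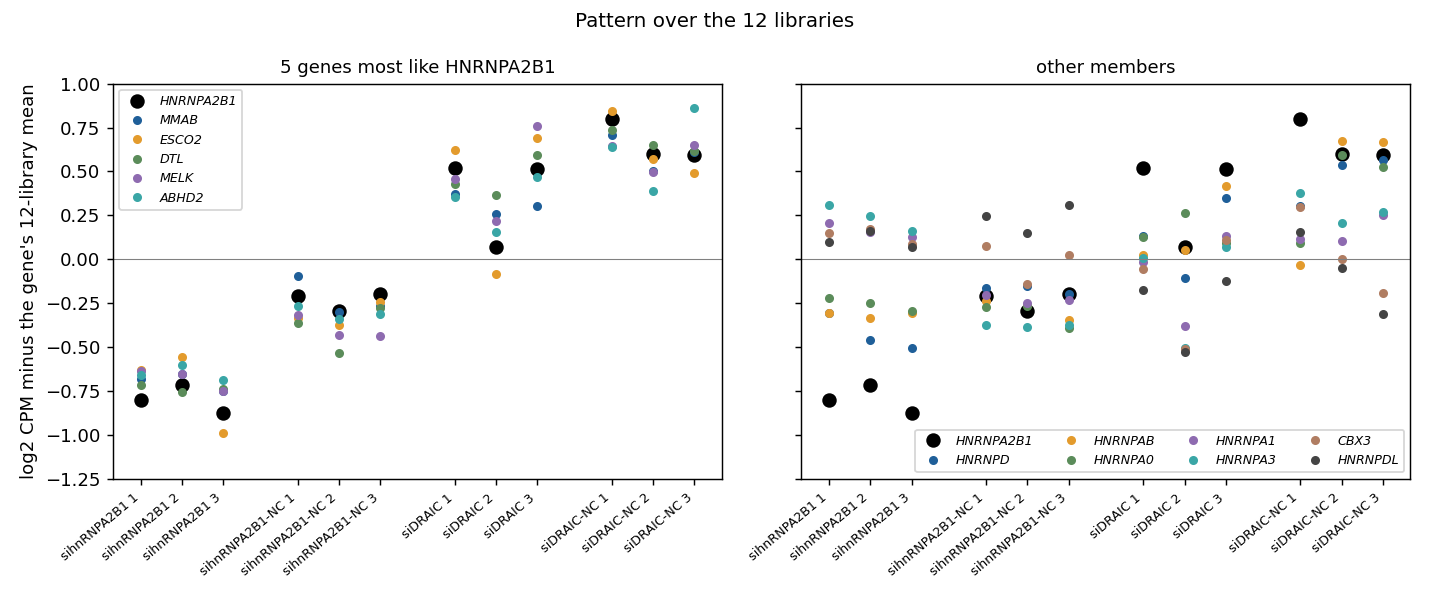
Log2 CPM minus the gene's mean over the 12 libraries for HNRNPA2B1 (large black points) with the 5 genes nearest to it (left) and with 7 other members (right). The 5 genes follow HNRNPA2B1 across all 4 groups, while HNRNPA1 and HNRNPA3 part from it in the sihnRNPA2B1 libraries.

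Of 22 other hnRNP proteins, 2 rose and 8 fell after hnRNPA2B1 siRNA, with a median log2 fold change of -0.02, where 30.4% of all tested genes were called. PTBP1, a splicing repressor, had 596 ± 10.2 CPM in sihnRNPA2B1 and 729 ± 33 CPM in sihnRNPA2B1-NC (log2 fold change -0.32, edgeR adjusted p = 1.28e-05). HNRNPM, a splicing regulator, had 279 ± 3.6 CPM in sihnRNPA2B1 and 333 ± 3.38 CPM in sihnRNPA2B1-NC (-0.29), HNRNPL fell by 0.23 and SYNCRIP, a cytoplasmic mRNA-binding relative, rose by 0.23 on the log2 scale. The count of 10 was 5 without sihnRNPA2B1 1, sihnRNPA2B1 2 or sihnRNPA2B1-NC 1. Of 3 tested proteins with paired RNA recognition motifs like those of the A/B family, MSI2, a translational regulator, had 39.6 ± 1.35 CPM in sihnRNPA2B1 and 23.4 ± 0.78 CPM in sihnRNPA2B1-NC (log2 fold change 0.73, edgeR adjusted p = 9.2e-09). DAZAP1 fell by 0.26 on the log2 scale (edgeR adjusted p = 0.0003217), and TARDBP was not called.

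Among 13 microRNA processing genes, 3 rose and 1 fell after hnRNPA2B1 siRNA, and 3 of 18 tested m6A genes were called. With 30.4% of all tested genes called, the first count is at the background and the second below it. DROSHA, the nuclear RNase that cuts primary microRNAs, had 83.7 ± 2.15 CPM in sihnRNPA2B1 and 67.8 ± 0.59 CPM in sihnRNPA2B1-NC (log2 fold change 0.27, edgeR adjusted p = 0.0006811). Its partner DGCR8 had 69.5 ± 1.08 CPM in sihnRNPA2B1 and 79.3 ± 2.74 CPM in sihnRNPA2B1-NC (-0.22, edgeR adjusted p = 0.004948). The helicase DDX17 rose by 0.27 and AGO1, an effector of silencing, by 0.36 on the log2 scale. Without sihnRNPA2B1-NC 2, 7 genes of this list were called. Of the m6A genes, the demethylase FTO (0.32, edgeR adjusted p = 0.002255) and the reader IGF2BP3 (0.25, edgeR adjusted p = 0.005075) rose and the nuclear reader YTHDC1 fell by 0.26 (edgeR adjusted p = 0.001203), and 5 were called without sihnRNPA2B1-NC 3.

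Of 10 nuclear import receptors and arginine methyltransferases, 3 rose and 2 fell, where 30.4% of all tested genes were called. These families include proteins that carry hnRNPs into the nucleus or methylate them. PRMT6, an arginine methyltransferase, had 41.2 ± 4.37 CPM in sihnRNPA2B1 and 28.8 ± 3.24 CPM in sihnRNPA2B1-NC (log2 fold change 0.48, edgeR adjusted p = 7.498e-05). TNPO3, an import receptor of SR proteins, rose by 0.15, and PRMT5 and PRMT3 fell by 0.24 and 0.18 on the log2 scale. The other import receptors, TNPO1 and TNPO2, were not called (edgeR adjusted p = 0.4017 and 0.1014). That count of 5 was 2 or 3 without sihnRNPA2B1 1, sihnRNPA2B1 2, sihnRNPA2B1 3 or sihnRNPA2B1-NC 1. Of 15 HP1 proteins and partners, tested because CBX3 is one of the HP1 proteins, 1 rose and 3 fell, which is near that background. SUV39H1, which methylates histone H3 for HP1 binding, had 10.8 ± 0.69 CPM in sihnRNPA2B1 and 15.1 ± 0.96 CPM in sihnRNPA2B1-NC (-0.53, edgeR adjusted p = 0.000195). INCENP and CHAF1B fell by 0.27 each (edgeR adjusted p = 0.003081 and 0.04831) while ADNP rose by 0.15 (edgeR adjusted p = 0.03206). That count of 4 was 2 without sihnRNPA2B1 1, sihnRNPA2B1 2 or sihnRNPA2B1-NC 1. CHAF1B missed the threshold in 10 of 13 alternatives, DESeq2 and limma-voom among them, and ADNP in 6.

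Of 10 nonsense-mediated decay factors, which degrade the unproductive transcripts that many hnRNP genes make, 1 rose and 3 fell, where 30.4% of all tested genes were called. UPF1, the core helicase of this decay, had 152 ± 7.01 CPM in sihnRNPA2B1 and 182 ± 10.5 CPM in sihnRNPA2B1-NC (log2 fold change -0.29, edgeR adjusted p = 0.0002647). SMG5 and SMG9 fell by 0.25 and 0.30, and UPF2 rose by 0.23 with overlapping groups. Over the 7 lists together 25 called genes are named by rule, and 19 of them kept their call whichever library was left out. The others, ADNP, CHAF1B, IGF2BP3, PRMT3, TNPO3 and UPF2, lost it without at least 1 library, at adjusted p of up to 0.2017. In the fit of all 12 libraries 1 of the 25 was called, MSI2. In the libraries labelled siDRAIC, 0 genes of these 7 lists were called by edgeR, and the unadjusted p was below 0.05 for 2 of the import and methyltransferase list, for 1 of the paired-motif list and for 0 of the others. With the replicate block 2, 1 and 1 genes were called there in the import and methyltransferase, paired-motif and m6A lists. Without siDRAIC-NC 1 calls appeared in 4 lists, 2 in the paired-motif list, 2 in the import and methyltransferase list, 1 among other hnRNPs and 1 among HP1 partners. Of the 25 named genes, SYNCRIP (-0.14) and UPF2 (-0.27) had the opposite sign in the libraries labelled siDRAIC, and the others the same sign. For the gene of smallest p in each list, the log2 fold changes there had SEs of 0.15 to 0.22. They were -0.39 (PTBP1), 0.71 (MSI2), 0.27 (DDX17), -0.15 (YTHDC1), 0.525 (PRMT6), -0.45 (SUV39H1) and -0.28 (UPF1).

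HNRNPA1 and HNRNPA3 have many processed copies in the genome, and their counts were checked for reads held by such copies, a check chosen after the values were seen. Apart from the member HNRNPA1L2, 75 annotated copies of HNRNPA1 were listed, 37 of them with a count in at least 1 library. Their summed level was 8.37 ± 1.72 CPM in sihnRNPA2B1 and 7.27 ± 1.37 CPM in sihnRNPA2B1-NC, which is 0.872% of the HNRNPA1 level in sihnRNPA2B1 and 1.04% in sihnRNPA2B1-NC. HNRNPA1L2, left out of these sums, had 7.29 ± 1.01 CPM in sihnRNPA2B1 and 6.61 ± 1.5 CPM in sihnRNPA2B1-NC. The 16 copies of HNRNPA3 summed to 2.13 ± 0.22 CPM in sihnRNPA2B1 and 1.81 ± 0.28 CPM in sihnRNPA2B1-NC. Reads that map equally to a copy could have been lost in counting, and no source used here says how such reads were treated.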

How the data were processed

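Per the labels' protocols, RNAiso Plus extraction was followed by TruSeq library preparation. The authors deposited raw counts of reads for each Ensembl gene, 1 table per siRNA experiment. The submitters' processing notes name STAR 2.7.10a, fastp 0.23.2, DESeq2 and StringTie with build hg38. The program, annotation and strand setting of the counting are not given in the sources used.

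A gene name table gave symbols for 60261 of the 60617 IDs in each table. Coordinates and exon lengths came from GENCODE 29, which holds 58542 of them. Promoter sequences are RefSeq's, found for 8 of the 9 members. Same-group libraries differed beyond sampling noise (chi-square per degree of freedom of 4.94 or more), so none was counted as a copy. Genes kept by filterByExpr (minimum count 10) were scaled by TMM and tested two-sided with edgeR 4.0.16 (robust quasi-likelihood, R 4.3.3), adjusted over all tested genes by the Benjamini-Hochberg method and called at an adjusted p below 0.05. Each siRNA experiment was fitted apart; the difference of changes and the control groups used all 12 libraries. SE was taken as the size of the log2 fold change divided by the root of F. The test was run on simulated counts, with the same spread for a gene in every library and no replicate pairs. That run checked the size and sign of estimates, and not the rate of false calls in these libraries. Alternatives were RLE factors, DESeq2 1.42.0, limma-voom (limma 3.58.1), no low-count filter, 1 CPM in 3 libraries, the replicate block, other sets of libraries and each library left out.

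Deviations from group means correlated at 0.438, 0.198 and 0.25 for same-numbered libraries of the DRAIC experiment, all over 0.1 and above the other pairs, so the numbers are taken to pair those. Named were the 9 members, up to 4 called genes of smallest p per list, protein-coding neighbours within 200 kb and the 5 genes of most like pattern. The members and lists were chosen with earlier results of these data known. TPM were computed from the counts and depend on exon-union lengths. The aligned coding window of 1 relative is not reported here.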

Additional observations from a re-analysis of the deposited data

Results flagged for a closer look

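The change of HNRNPA3 differed between the 2 experiments, by a call that was lost without any 1 library of the hnRNPA2B1 experiment. Its log2 fold change was -0.38 in the libraries labelled siDRAIC and 0.62 after hnRNPA2B1 siRNA, and the difference of -1.03 passed the test of the difference itself (SE 0.18, edgeR adjusted p = 0.02906). HNRNPA3 was lower in 3 of 3 siDRAIC libraries than in every siDRAIC-NC library, and higher in 3 of 3 sihnRNPA2B1 libraries than in every sihnRNPA2B1-NC library. The change in the DRAIC experiment did not itself pass the threshold. Without any 1 of the 6 libraries of the hnRNPA2B1 experiment, or without siDRAIC-NC 3, the difference missed the threshold, at adjusted p of 0.07405 to 0.1227. In those fits 9 to 14 genes in all were called, against 36 in the main fit. Over all alternatives the difference stayed between -1.13 and -0.85. With the replicate block, which the libraries of the DRAIC experiment follow, the edgeR adjusted p was 0.004149.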

How the results depend on the processing

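After hnRNPA2B1 siRNA, 110 of 117 values of single members over all alternatives kept their direction and side of the threshold and 0 reversed. HNRNPA2B1 stayed between -0.60 and -0.53 and HNRNPA3 between 0.59 and 0.66, called in all 13 alternatives. In the fit of all 12 libraries 283 genes and 2 members were called, against 4781 and 4. CBX3 passed under limma-voom (adjusted p = 0.04566) and with the filter of 1 CPM in 3 libraries (adjusted p = 0.0371). In the libraries labelled siDRAIC, genes called were 373 with DESeq2, 73 with limma-voom, 520 with no low-count filter, 61 with 1 CPM in 3 libraries, 665 in the fit of all 12 libraries, 1404 with the replicate block and 9 to 1035 with 1 library left out, against 114, with 0 members called in each. For the difference between changes, genes called were 188 with DESeq2, 263 with no low-count filter, 258 with the replicate block and 9 to 349 with 1 library left out, against 36, and members called were 2 with no low-count filter, 2 with the replicate block and 0 to 2 with 1 library left out, against 1. With no low-count filter HNRNPA1 had an adjusted p of 0.02911 for the difference. The replicate block changed no other call of a member in the comparisons run. In the hnRNPA2B1 experiment the numbers do not pair the libraries (correlations of -0.015, -0.021 and -0.038), and the block gave 4414 calls. Directions reversed in uncalled values only, each with 1 library left out. In the libraries labelled siDRAIC, HNRNPA1L2 ranged from -0.2484 to 0.0869, above 0 without siDRAIC 2, siDRAIC 3, siDRAIC-NC 1 or siDRAIC-NC 3, and CBX3 from -0.2857 to 0.0014, above 0 without siDRAIC-NC 1. For the difference, HNRNPD ranged from -0.205 to 0.038 and HNRNPDL from -0.1988 to 0.0484, both above 0 without siDRAIC 2 and HNRNPDL also without siDRAIC-NC 1. Between the control groups CBX3 ranged from -0.0829 to 0.1661, below 0 without sihnRNPA2B1-NC 2 or siDRAIC-NC 1. The cause of these shifts was not tested. HNRNPA1L2 rests on 92 to 315 counts a library, which limits its precision.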
